A study of Mus musculus with 40 samples.

Results

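Expression of 36 genes of mitochondrial and peroxisomal fatty acid oxidation was examined in mouse liver after repeated oral gavage of the dioxin 2,3,7,8-tetrachlorodibenzo-p-dioxin (abbreviated TCDD), a potent ligand of the aryl hydrocarbon receptor (AhR). The genes were chosen by symbol from knowledge of the pathway, with earlier results of these data known. Each symbol matched 1 of the 55359 gene identifiers counted, and all 36 passed the filter on low counts that left 15373 genes to test. RNA was sequenced from 40 livers in 8 groups of 5 mice. The groups were sesame oil vehicle, TCDD at 0.03, 0.1 or 0.3 μg/kg, TCDD at 1 or 3 μg/kg, and TCDD at 10 or 30 μg/kg. All were intact male C57BL/6 mice, 30 days old at the start and 58 days at the end, given 0.1 mL by gavage every 4 days for 28 days (7 gavages). No transgene or deletion was used, and each library came from frozen tissue of whole liver, which holds every liver cell type. Levels are CPM, counts per M reads of the effective size of each library (M, mega). A gene was called higher or lower where the quasi-likelihood test of edgeR gave a p below 0.05 after Benjamini-Hochberg adjustment over all genes tested and the fold against vehicle was at least 1.5, and "rose" and "fell" are used of called genes alone.

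Long-chain fatty acids enter mitochondria as carnitine esters and are shortened there by repeated rounds of dehydrogenation, hydration, a further dehydrogenation and thiolysis, with electrons passed to the respiratory chain through electron transfer flavoprotein. Peroxisomes shorten very-long-chain and branched-chain fatty acids and bile acid intermediates by a parallel set of enzymes, and pass the shortened acyl groups on as free acids or carnitine esters. Acyl-CoA thioesterases cut acyl-CoA to free fatty acid and CoA in the cytosol and in both organelles. In liver many of these genes are targets of the nuclear receptor PPARα, which binds a direct repeat of AGGTCA with 1 base between the copies (DR1), whereas the activated AhR binds sites with the core GCGTG. Of the 36 genes, 16 were assigned to a mitochondrial arm and 14 to a peroxisomal arm. The other 6 were in neither: Ppara itself, Eci2 and Crat, whose products lie in both organelles, the cytosolic thioesterases Acot1 and Acot12, and the ketone body enzyme Bdh1.

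Promoter sequences from RefSeq (build GRCm38.p6, 250 bases before to 50 after each start) were at hand for 31 of the 36 genes, and both strands were searched. The DR1 AGGTCANAGGTCA was in none of the 31 and in 0.0481% of all 27025 genes with a promoter, and the looser DR1 AGGNCANAGGNCA was in none and in 0.451%. A single AGGTCA was in 7 of the 31 (22.6%) against 18.1% of all genes, and GCGTG was in 14 (45.2%) against 35.2%. Matches to AGGTCA include any within a DR1. The 250 bases before the start are shown for 5 genes that carry the results below: Ppara and Scp2, which fell at 30 μg/kg, and Ehhadh, Acot4 and Acot2, which rose. They are written 5′ to 3′ on the strand of the gene, with every GCGTG in capitals on either strand, and likewise every AGGTCA.
Ppara, chr15:85735526-85735775, plus strand: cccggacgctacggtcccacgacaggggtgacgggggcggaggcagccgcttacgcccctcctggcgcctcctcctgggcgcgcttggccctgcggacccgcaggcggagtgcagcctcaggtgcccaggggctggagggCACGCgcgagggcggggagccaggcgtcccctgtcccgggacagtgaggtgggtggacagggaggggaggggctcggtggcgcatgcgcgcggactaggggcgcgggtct
Scp2, chr4:108118548-108118797, minus strand: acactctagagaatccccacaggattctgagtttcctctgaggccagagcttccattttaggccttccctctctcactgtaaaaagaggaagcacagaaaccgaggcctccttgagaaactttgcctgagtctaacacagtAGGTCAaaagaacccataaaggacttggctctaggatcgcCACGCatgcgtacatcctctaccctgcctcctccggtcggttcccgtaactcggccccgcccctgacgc
Ehhadh, chr16:21787835-21788084, minus strand: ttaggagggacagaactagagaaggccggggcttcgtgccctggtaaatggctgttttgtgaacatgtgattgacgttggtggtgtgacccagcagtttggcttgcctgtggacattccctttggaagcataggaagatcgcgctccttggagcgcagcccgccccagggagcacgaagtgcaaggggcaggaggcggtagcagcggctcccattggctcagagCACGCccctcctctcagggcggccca
Acot4, chr12:84038129-84038378, plus strand: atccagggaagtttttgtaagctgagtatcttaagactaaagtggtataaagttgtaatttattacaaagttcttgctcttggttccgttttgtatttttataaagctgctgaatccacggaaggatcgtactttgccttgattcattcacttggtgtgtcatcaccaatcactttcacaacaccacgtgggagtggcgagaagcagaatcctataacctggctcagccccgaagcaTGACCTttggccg
Acot2, chr12:83987611-83987860, plus strand: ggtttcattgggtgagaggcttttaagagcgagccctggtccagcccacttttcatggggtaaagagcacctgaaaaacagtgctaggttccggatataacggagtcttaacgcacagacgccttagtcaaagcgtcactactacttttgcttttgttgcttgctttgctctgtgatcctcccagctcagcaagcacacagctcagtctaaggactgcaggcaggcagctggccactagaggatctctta
The stretch before Ppara held 1 GCGTG match, and the whole window with the 50 bases after the start held 3. Scp2 had 1 GCGTG match and 1 AGGTCA match, Ehhadh had 1 GCGTG match, Acot4 had 1 AGGTCA match, and Acot2 had neither. A match describes these letters in this window alone.

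Gene counts per library lay between 15.5 M and 21.0 M reads with a median of 17.5 M, and the lowest count of any of the 36 genes in any library was 15. All 10 hepatocyte markers were detected in every group. The 6 AhR target genes examined were all called higher at 3, 10 and 30 μg/kg. The tissue as a whole differed from vehicle at 30 μg/kg. Of the 10 hepatocyte markers, 8 fell, and their summed level was 40318 to 84218 CPM against 126052 to 152432 CPM in vehicle. All 8 macrophage markers rose, and their sum was 495 to 1209 CPM against 143 to 205 CPM. Called higher as well were 4 of 5 cholangiocyte markers (1 was lower), 4 of 5 stellate cell markers, 3 of 5 endothelial markers, all 5 lymphocyte markers and the 3 neutrophil markers tested of 5. No adipocyte marker was called, and 3 of the 5 were too low to test. Of all these markers, Ly6g was at 0 in vehicle and at 10 μg/kg, Lep in vehicle, at 10 and at 30 μg/kg, and Adipoq at 30 μg/kg. The part of these shifts in the values below was not tested, and in whole liver fewer hepatocytes and less RNA per hepatocyte cannot be told apart. One mouse at 30 μg/kg, replicate 1, stood apart from the other 4 for many of the genes below. It had the highest hepatocyte marker sum (84218 CPM, the others 40318 to 70842 CPM) and the lowest macrophage marker sum (495 CPM, the others 653 to 1209 CPM) of its group, with an AhR target sum (29796 CPM) inside the range of the other 4 (26719 to 35506 CPM).

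The fatty acid oxidation genes were called in both directions, from 1 μg/kg upward. As for all genes tested, more of them were called at 10 and 30 μg/kg than at lower doses. None was called at 0.03, 0.1 or 0.3 μg/kg, where 0.0195%, 0.0976% and 0.468% of all genes tested were called by the same edgeR test. DESeq2 called none there either, and edgeR gave an unadjusted p under 0.05 for 1, 0 and 5 of the 36 genes. At 1 μg/kg Crat and Acaa1b fell and Abcd2 rose, that is 2 of 36 genes lower (5.56%, all genes 0.637%) and 1 higher (2.78%, all genes 2.15%). At 3 μg/kg the 2 lower genes were again Crat and Acaa1b (all genes 2.22%) and none was higher by edgeR or DESeq2 (all genes 4.53%), with 6 higher at an unadjusted p under 0.05. At 10 μg/kg 5 genes were lower (13.9%, all genes 8.13%) and 5 higher (13.9%, all genes 13.6%). In the 30 μg/kg group 9 were lower (25%, all genes 18.9%) and 7 higher (19.4%, all genes 23.2%). The shares at 10 and 30 μg/kg were therefore of the size seen for all genes. The median log2 fold change of the 36 genes at 30 μg/kg was -0.21, against 0.03 for all genes tested. Under scaling by library totals in place of edgeR's TMM factors, the median of all genes at 30 μg/kg was 0.52. The split of the 36 genes was then 5 lower and 9 higher at 30 μg/kg, and 3 lower and 6 higher at 10 μg/kg. Of all 15373 genes, that scaling called 1559 lower and 6402 higher at 30 μg/kg. At 10 μg/kg it called 756 lower and 2980 higher.

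**Figure D1:**
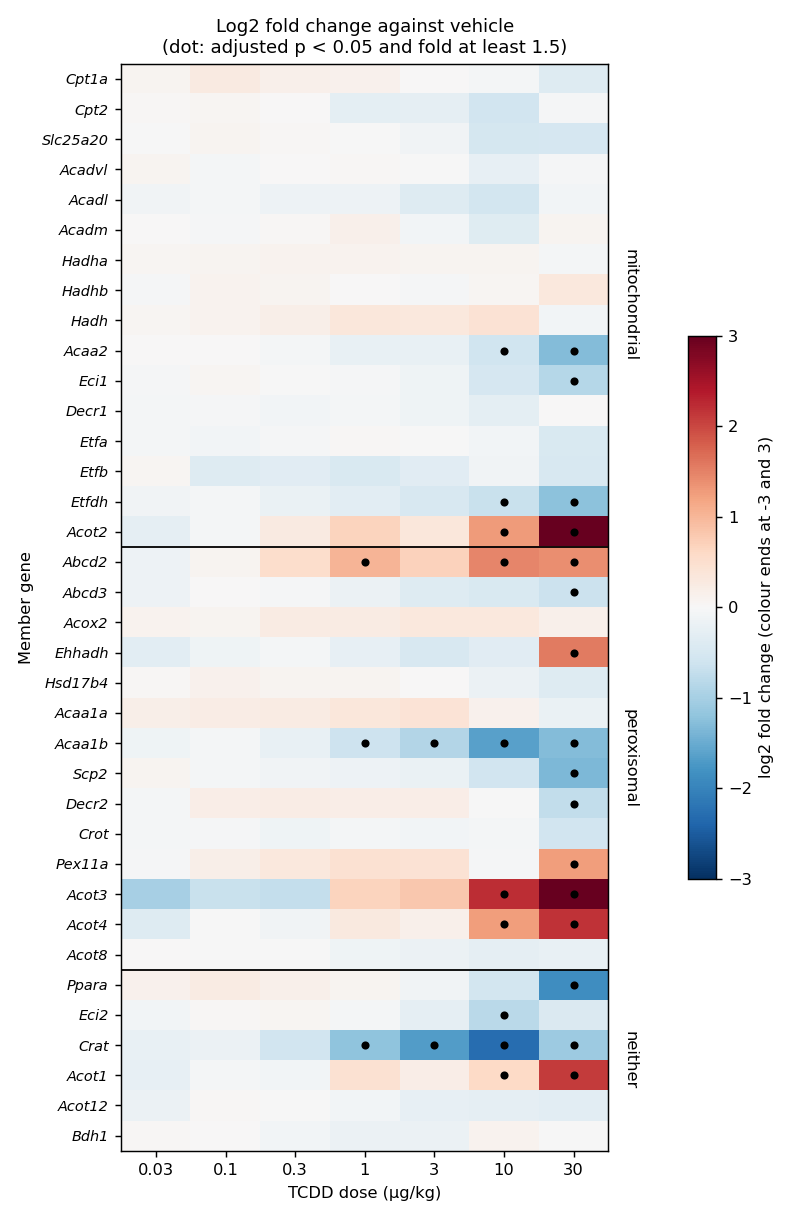
Log2 fold change against vehicle of the 36 genes (rows, by arm) at each of the 7 TCDD doses (columns, μg/kg), with a dot where a gene was called. The left 3 columns hold no dot, Crat and Acaa1b carry dots from 1 to 30 μg/kg, and the deepest reds at 30 μg/kg are Acot2 (3.72) and Acot3 (3.21).

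Ppara encodes the fatty acid receptor that drives many of these genes. In the 5 vehicle mice it stood at 59.2, 84.7, 65.3, 66.5 and 63.3 CPM, at 10 μg/kg at 40.8, 54.9, 48.2, 50.0 and 37.0 CPM, and at 30 μg/kg at 34.3, 12.6, 13.0, 14.2 and 18.9 CPM. Every mouse at 10 and at 30 μg/kg was below every vehicle mouse, and at 30 μg/kg replicate 1 was the highest. The log2 fold change was -1.87 ± 0.21 (SE, n = 5 per group, adjusted p = 1.12e-09, edgeR) at 30 μg/kg. At 10 μg/kg it was -0.55 ± 0.20 (adjusted p = 0.0334, edgeR), a fold of 1.47 that was short of the threshold, and the step from 10 to 30 μg/kg was itself called (-1.31 ± 0.21, adjusted p = 5.19e-06, edgeR). Without vehicle replicate 1 or 10 μg/kg replicate 2 the value at 10 μg/kg passed it (-0.60 and -0.62).

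Carnitine entry into mitochondria showed no call at any dose. Cpt1a, the carnitine palmitoyltransferase of the outer membrane that controls entry, stood at 196, 303, 218, 243 and 311 CPM in vehicle, at 168, 243, 245, 293 and 279 CPM at 10 μg/kg and at 154, 201, 218, 163 and 233 CPM at 30 μg/kg. The groups overlapped, with a log2 fold change of -0.39 ± 0.14 at 30 μg/kg (adjusted p = 0.0195, edgeR, under the fold threshold). Cpt2, the inner membrane transferase, and Slc25a20, the carnitine acylcarnitine carrier, were -0.57 and -0.53 at 10 μg/kg on the log2 scale (adjusted p = 4.33e-05 and 9.54e-05, edgeR, both just under the fold threshold). At 30 μg/kg Cpt2 was at -0.04 and Slc25a20 at -0.50. Cpt2 passed the threshold at 10 μg/kg without vehicle replicate 1 (-0.60), 10 μg/kg replicate 4 (-0.63) or 10 μg/kg replicate 5 (-0.61), and Slc25a20 at 30 μg/kg without 30 μg/kg replicate 2 (-0.61).

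The core of the mitochondrial spiral was little changed apart from its last enzyme, Acaa2. Of the electron transfer genes Etfdh alone fell. The acyl-CoA dehydrogenases Acadvl, Acadl and Acadm, which start each round for very-long, long and medium chains, were at -0.04, -0.09 and 0.08 on the log2 scale at 30 μg/kg and none was called at any dose. For Acadvl 42.85% of the exon bases in the annotation are shared with another gene, which leaves part of its reads ambiguous. Acadl was at -0.54 (adjusted p = 6.54e-05, edgeR) at 10 μg/kg and passed the fold threshold there without 10 μg/kg replicate 4 (-0.59). The trifunctional protein subunits Hadha and Hadhb were at -0.07 and 0.32, and the shorter-chain hydroxyacyl-CoA dehydrogenase Hadh at -0.08 at 30 μg/kg after 0.44 (adjusted p = 0.00259, edgeR) at 10 μg/kg.

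Acaa2, the ketoacyl-CoA thiolase that closes the mitochondrial round, fell from 10 μg/kg onward. It stood at 902, 1121, 1068, 1001 and 1184 CPM in vehicle, at 665, 605, 548, 741 and 925 CPM at 10 μg/kg, and at 523, 442, 341, 423 and 428 CPM at 30 μg/kg. At 10 μg/kg replicate 5 lay inside the vehicle range, and at 30 μg/kg no mouse did. The log2 fold change was -0.60 ± 0.12 (adjusted p = 0.000129, edgeR) at 10 μg/kg and -1.29 ± 0.12 (adjusted p = 1.29e-11, edgeR) at 30 μg/kg. The call at 10 μg/kg was at the edge of the fold threshold and was lost without vehicle replicate 2 or 5 or 10 μg/kg replicate 1, 2 or 3 (-0.58 to -0.52).

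Etfdh, the dehydrogenase that hands electrons from electron transfer flavoprotein to ubiquinone, fell at 10 and 30 μg/kg and had the smallest adjusted p of the 36 genes. It stood at 277, 278, 239, 271 and 272 CPM in vehicle, and its means were 216 ± 11.9 (SD, n = 5) CPM at 1 μg/kg, 191 ± 20.2 CPM at 3 μg/kg, 168 ± 11.4 CPM at 10 μg/kg and 115 ± 17.8 CPM at 30 μg/kg. All mice from 1 μg/kg upward in these groups were below all vehicle mice. The log2 fold change was -0.31 at 1 μg/kg (adjusted p = 0.0446, edgeR), -0.48 at 3 μg/kg (adjusted p = 0.0003, edgeR), both under the fold threshold, then -0.67 ± 0.09 at 10 μg/kg (adjusted p = 2.72e-07, edgeR) and -1.22 ± 0.09 at 30 μg/kg (adjusted p = 5.37e-14, edgeR). The flavoprotein subunit Etfa was at -0.46 at 30 μg/kg (adjusted p = 0.000179, edgeR), under the fold threshold. The other subunit, Etfb, was at -0.47 (adjusted p = 0.0899, edgeR), but 58.2% of its exon bases in the annotation are shared with another gene, which leaves its reads ambiguous and its level at 4.59 ± 1.33 CPM in vehicle uncertain.

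Of the 2 auxiliary enzymes for unsaturated chains, the isomerase Eci1 fell at 30 μg/kg and the dienoyl-CoA reductase Decr1 did not pass the test (0.02 at 30 μg/kg). Eci1 stood at 138, 167, 172, 135 and 169 CPM in vehicle, at 114, 105, 92.7, 118 and 119 CPM at 10 μg/kg, and at 94.7, 98.1, 75.7, 79.5 and 84.4 CPM at 30 μg/kg. Neither of these dose groups overlapped vehicle, with log2 fold changes of -0.51 ± 0.10 (adjusted p = 0.000107, edgeR, under the fold threshold) and -0.85 ± 0.10 (adjusted p = 3.03e-09, edgeR). Under scaling by library totals Eci1 was at -0.36 at 30 μg/kg, below the fold threshold.

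**Figure D2:**
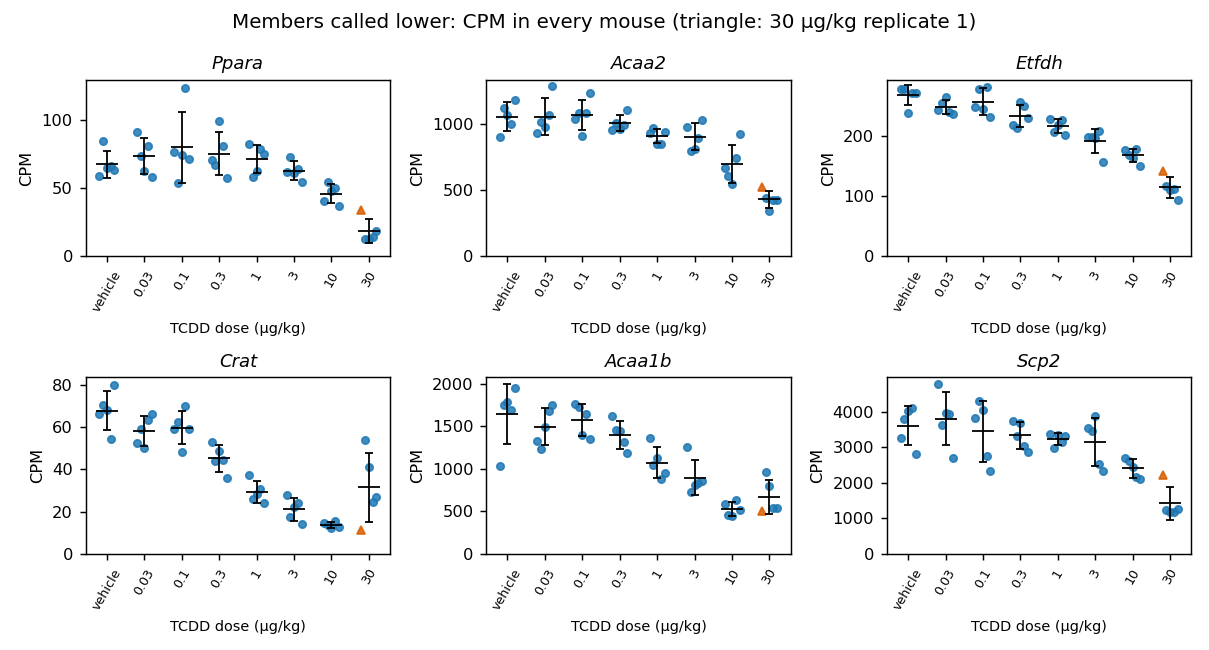
CPM in every mouse (points; the triangle is 30 μg/kg replicate 1) with the group mean and SD (bar and whiskers) for 6 genes called lower, by TCDD dose (μg/kg, evenly spaced). Crat and Acaa1b step down from 1 μg/kg and are higher at 30 than at 10 μg/kg on average, while Ppara, Acaa2, Etfdh and Scp2 are lowest at 30 μg/kg, where the triangle is the highest point for all 4.

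The peroxisomal fatty acid transporters moved in opposite directions. Abcd2, a transporter of very-long-chain acyl groups present at a low level in liver, stood at 17.2, 16.5, 10.1, 8.12 and 13.4 CPM in vehicle and at 31.5, 27.7, 28.3, 31.1 and 13.5 CPM at 1 μg/kg, a rise of 1.01 ± 0.27 on the log2 scale (adjusted p = 0.0244, edgeR). It was at 34.8, 45.9, 46.7, 32.6 and 20.6 CPM at 10 μg/kg and at 43.0, 34.2, 32.7, 27.2 and 33.9 CPM at 30 μg/kg. At 1 μg/kg replicate 5 lay in the vehicle range, and at 10 and 30 μg/kg no mouse did (1.46 ± 0.27, adjusted p = 5.49e-05, and 1.38 ± 0.27, adjusted p = 4.05e-05, edgeR). It was not called at 3 μg/kg (0.68, adjusted p = 0.111, edgeR), and its call at 1 μg/kg was lost without vehicle replicate 3 or 4 or 1 μg/kg replicate 1, 3 or 4 (0.88 to 0.99). Abcd3, a transporter of branched-chain and bile acid intermediates, stood at 836, 746, 694, 750 and 770 CPM in vehicle and at 500, 474, 527, 502 and 424 CPM at 30 μg/kg, a fall of -0.65 ± 0.11 (adjusted p = 8.06e-06, edgeR) with no overlap. Under scaling by library totals that value was -0.15 (adjusted p = 0.321, edgeR) and was not called.

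Among the peroxisomal oxidation enzymes, the bifunctional enzyme Ehhadh rose at 30 μg/kg alone, and did so unevenly between mice. Ehhadh combines hydratase and dehydrogenase activities for straight chains. It stood at 514, 494, 476, 503 and 609 CPM in vehicle and at 371, 334, 468, 500 and 370 CPM at 10 μg/kg. Its levels at 30 μg/kg were 337, 2729, 2526, 1329 and 686 CPM. Replicate 1 was thus below every vehicle mouse and the other 4 above all of them, and the log2 fold change was 1.55 ± 0.28 (adjusted p = 9.49e-06, edgeR, higher than the vehicle mean in 4 of 5 mice) after -0.49 at 3 μg/kg and -0.34 at 10 μg/kg (not called). The step from 10 to 30 μg/kg was 1.90 ± 0.28 (adjusted p = 1.82e-06, edgeR). Without replicate 1 the value at 30 μg/kg was 1.81. Hsd17b4, the other bifunctional enzyme, which serves branched chains and bile acid intermediates, was at -0.38 at 30 μg/kg (adjusted p = 5.15e-05, edgeR), under the fold threshold and below all vehicle mice. Acox2, the branched-chain acyl-CoA oxidase, was not called at any dose (0.33 at 3 μg/kg, 0.14 at 30 μg/kg).

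Of the peroxisomal thiolases, Acaa1b fell from 1 μg/kg onward. It stood at 1039, 1758, 1785, 1697 and 1953 CPM in vehicle, at 1361, 1048, 1125, 886 and 955 CPM at 1 μg/kg and at 1258, 726, 816, 840 and 853 CPM at 3 μg/kg. At 10 μg/kg it was at 592, 463, 450, 639 and 520 CPM, and at 30 μg/kg at 505, 962, 804, 546 and 536 CPM. Every mouse at 10 and 30 μg/kg was below every vehicle mouse, whereas at 1 and 3 μg/kg the ranges overlapped through vehicle replicate 1. The log2 fold changes were -0.62 ± 0.17 at 1 μg/kg (adjusted p = 0.0304, edgeR), -0.87 ± 0.17 at 3 μg/kg (adjusted p = 0.000529, edgeR), -1.63 ± 0.17 at 10 μg/kg (adjusted p = 2.29e-09, edgeR) and -1.30 ± 0.17 at 30 μg/kg (adjusted p = 4.37e-08, edgeR). The step from 3 to 10 μg/kg was called (-0.75, adjusted p = 0.00311, edgeR). The call at 1 μg/kg was lost without any 1 of vehicle replicates 2, 3, 4 and 5 or 1 μg/kg replicates 2, 3, 4 and 5 (-0.63 to -0.55).

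Its paralog Acaa1a, which encodes a near-identical thiolase, was not called at any dose. It stood at 169, 258, 259, 232 and 258 CPM in vehicle, at 258, 251, 222, 251 and 308 CPM at 10 μg/kg and at 233, 236, 196, 160.7 and 207 CPM at 30 μg/kg. Those groups overlapped, with log2 fold changes of 0.13 and -0.19, and the largest value was 0.41 at 3 μg/kg (adjusted p = 0.0185, edgeR, under the fold threshold). The paralogs share sequence, since 11.3% of the 150-base windows of Acaa1b transcripts occur in another of the 36 genes and 3.88% of those of Acaa1a, and reads that fit both were not counted. Scp2, whose longer product is the thiolase for branched chains and whose shorter product is sterol carrier protein, was at 3266, 3806, 4025, 4109 and 2817 CPM in vehicle and at 2235, 1242, 1191, 1173 and 1280 CPM at 30 μg/kg. Replicate 1 was the highest of its group by a wide gap and still below every vehicle mouse. The log2 fold change was -1.34 ± 0.18 (adjusted p = 3.2e-08, edgeR). It was at -0.58 ± 0.17 at 10 μg/kg (adjusted p = 0.0086, edgeR), at the edge of the fold threshold, which it passed in 5 of the 10 fits that left out 1 library (vehicle replicate 1 or 5, 10 μg/kg replicate 1, 2 or 3).

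Decr2, the peroxisomal dienoyl-CoA reductase, fell at 30 μg/kg from 195, 208, 218, 218 and 264 CPM in vehicle to 176, 118, 116, 117 and 131 CPM, with 220, 210, 194, 240 and 221 CPM at 10 μg/kg. The 30 μg/kg mice were all below vehicle, replicate 1 the nearest to it, and the log2 fold change was -0.75 ± 0.10 (adjusted p = 6.26e-08, edgeR) with -0.02 at 10 μg/kg. Under scaling by library totals Decr2 was at -0.26 at 30 μg/kg, below the fold threshold. Crot, which turns shortened acyl-CoA into carnitine esters for export to mitochondria, was at -0.57 ± 0.14 (adjusted p = 0.000808, edgeR) at 30 μg/kg, just under the fold threshold, which it passed without vehicle replicate 4 (-0.60) or 30 μg/kg replicate 1, 2 or 3 (-0.67, -0.64 and -0.62). Pex11a, a membrane protein that promotes peroxisome division, stood at 54.5, 81.1, 87.7, 70.4 and 68.5 CPM in vehicle, at 78.2, 72.3, 61.7, 73.4 and 70.1 CPM at 10 μg/kg and at 56.4, 254, 236, 147 and 169 CPM at 30 μg/kg. At 30 μg/kg replicate 1 lay inside the vehicle range of Pex11a and the other 4 mice above it (1.25 ± 0.20, adjusted p = 1.46e-06, edgeR, above the vehicle mean in 4 of 5 mice). The step from 10 to 30 μg/kg was 1.28 ± 0.20 (adjusted p = 4.55e-06, edgeR).

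Acyl-CoA thioesterases held 4 of the 7 rises at 30 μg/kg. Of the 6 among the 36 genes, Acot1, Acot2, Acot3 and Acot4 rose at both 10 and 30 μg/kg (66.7% at each, with 13.6% and 23.2% of all genes higher), and peroxisomal Acot8 (-0.22) and cytosolic Acot12 (-0.33) were not called. The median log2 fold change of the 6 was 0.92 at 10 μg/kg and 2.13 at 30 μg/kg, against 0.01 and 0.03 for all genes tested. Further thioesterases (Acot5, Acot6, Acot7, Acot9, Acot11 and Acot13) were on the list of other genes below and do not enter these shares. Mitochondrial Acot2 stood at 10.0, 8.96, 6.93, 6.65 and 9.31 CPM in vehicle, at 18.5, 15.9, 27.2, 28.3 and 12.3 CPM at 10 μg/kg and at 28.2, 232, 155, 82.4 and 55.8 CPM at 30 μg/kg. No treated mouse of these groups overlapped vehicle, and the spread at 30 μg/kg followed the order of mice seen for Ehhadh, from replicate 2 at the top through 3, 4 and 5 to replicate 1. The log2 fold change of Acot2 was 1.28 ± 0.33 at 10 μg/kg (adjusted p = 0.00243, edgeR) and 3.72 ± 0.35 at 30 μg/kg (adjusted p = 1.57e-11, edgeR), the largest of the 36 genes.

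Cytosolic Acot1 stood at 60.2, 89.5, 69.2, 54.9 and 74.3 CPM in vehicle, at 106, 63.0, 89.2, 169 and 97.0 CPM at 10 μg/kg and at 148, 475, 343, 265 and 249 CPM at 30 μg/kg. The group at 10 μg/kg overlapped vehicle (0.59 ± 0.22, adjusted p = 0.0407, edgeR), and that call was lost in 6 of the 10 fits that left out 1 library (vehicle replicate 1, 3, 4 or 5, 10 μg/kg replicate 1 or 4, with values of 0.35 to 0.62). At 30 μg/kg there was no overlap (2.09 ± 0.23, adjusted p = 8.98e-10, edgeR). Peroxisomal Acot3 stood at 6.22, 6.16, 3.43, 2.73 and 8.81 CPM in vehicle, at 20.6, 20.5, 26.6, 42.7 and 17.7 CPM at 10 μg/kg and at 49.5, 47.4, 42.3, 60.9 and 53.8 CPM at 30 μg/kg. Neither dose overlapped vehicle (2.23 ± 0.36, adjusted p = 6.52e-06, and 3.21 ± 0.37, adjusted p = 1.76e-09, edgeR), and unlike Acot2 its 30 μg/kg mice lay close together, replicate 1 among them. Acot4 rose by 1.25 ± 0.20 at 10 μg/kg and 2.17 ± 0.20 at 30 μg/kg (adjusted p = 4.98e-06 and 1.59e-11, edgeR). These genes lie next to one another on chromosome 12 and resemble each other, with 10.2% of the 150-base windows of Acot2, 6.92% of Acot1 and 1.56% of Acot3 found in another of the 36 genes. In the annotation 20.6% of the exon bases of Acot3 and 9.71% of those of Acot4 are shared with other genes.

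**Figure D3:**
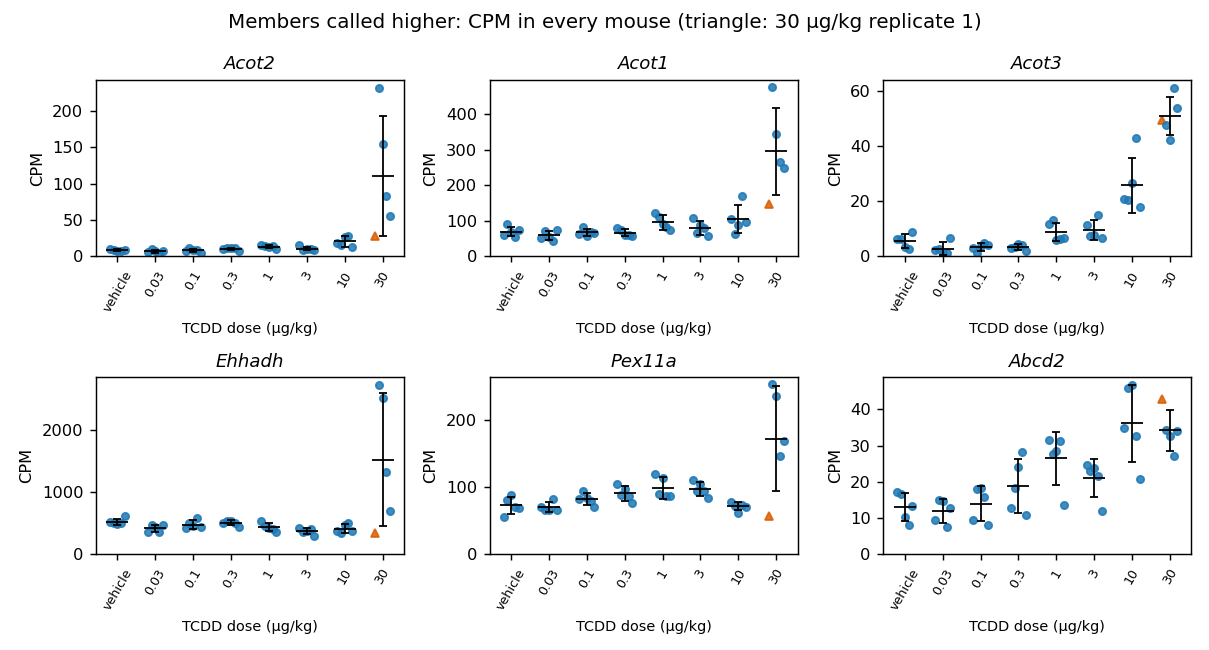
CPM in every mouse (points; the triangle is 30 μg/kg replicate 1) with the group mean and SD (bar and whiskers) for 6 genes called higher, by TCDD dose (μg/kg, evenly spaced). The triangle is the lowest 30 μg/kg point for Acot2, Acot1, Ehhadh and Pex11a, whereas the 5 mice lie together for Acot3 and Abcd2.

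Of the genes in neither arm, Crat showed the earliest and, at 10 μg/kg, the largest fall. Crat encodes carnitine acetyltransferase, which buffers acetyl-CoA in mitochondria and peroxisomes. It stood at 66.0, 70.4, 68.2, 54.4 and 80.1 CPM in vehicle, and at 37.6, 25.9, 28.6, 30.9 and 24.2 CPM at 1 μg/kg. At 3 μg/kg it was at 27.8, 17.4, 22.1, 24.3 and 14.3 CPM, and at 10 μg/kg at 14.7, 13.9, 12.1, 15.5 and 12.8 CPM. No mouse of these 3 groups overlapped vehicle, and the log2 fold change went from -1.20 ± 0.22 (adjusted p = 0.000309, edgeR) to -1.68 ± 0.22 (adjusted p = 7.54e-07, edgeR) to -2.30 ± 0.22 (adjusted p = 2.7e-10, edgeR). The 5 mice at 30 μg/kg were at 11.5, 53.7, 41.3, 24.8 and 26.7 CPM. Replicate 1 there was at the 10 μg/kg level and the other 4 were above all 10 μg/kg mice, so that the fall against vehicle was smaller (-1.10 ± 0.21, adjusted p = 3.52e-05, edgeR) and the step from 10 to 30 μg/kg was a rise (1.20 ± 0.22, adjusted p = 4.42e-05, edgeR). Under scaling by library totals Crat was at -0.57 at 30 μg/kg, just under the fold threshold. Eci2, an enoyl-CoA isomerase, fell at 10 μg/kg (-0.81 ± 0.19, adjusted p = 0.00091, edgeR) and was not called at 30 μg/kg (-0.44, adjusted p = 0.0449, edgeR), though it passed the threshold there without 30 μg/kg replicate 2 (-0.65). Bdh1, which makes the ketone body hydroxybutyrate, was at 0.10 and -0.01 at the 2 doses.

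Of the steps between neighbouring doses, those from 3 to 10 and from 10 to 30 μg/kg were tested. The step from 10 to 30 μg/kg held 4 genes lower (11.1%, all genes 10.6%) and 7 higher (19.4%, all genes 10.6%). Besides Ppara, Ehhadh, Pex11a and Crat, the lower genes were Acaa2 (-0.69), Scp2 (-0.76) and Decr2 (-0.72), and the higher genes were Acot1 (1.5), Acot2 (2.44), Acot3 (0.99) and Acot4 (0.91). The Acot3 step was lost without 10 μg/kg replicate 1, 2 or 5 or 30 μg/kg replicate 4 (0.88 to 0.92, adjusted p of 0.0527 to 0.0603, edgeR), and the Acaa2 step was under the fold threshold without 10 μg/kg replicate 5 (-0.57). Without 30 μg/kg replicate 1, 7 genes were lower and 8 higher in that step, with Hadh, Etfdh, Crot and Cpt2 added. With total-count scaling the split was 1 lower and 13 higher. From 3 to 10 μg/kg 1 gene was lower (2.78%, all genes 2.34%), Acaa1b, and 2 were higher (5.56%, all genes 4.43%), Acot3 (1.42) and Acot4 (1.11).

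In the comparison of the arms, 4 of 16 mitochondrial genes were called at 30 μg/kg (3 lower, 18.8%, and 1 higher, 6.25%) and 9 of 14 peroxisomal genes (4 lower, 28.6%, and 5 higher, 35.7%), with all genes at 18.9% lower and 23.2% higher. The median log2 fold changes at 30 μg/kg were -0.08 for the mitochondrial and -0.21 for the peroxisomal arm, values that became 0.41 and 0.29 with total-count scaling, where the median of all genes was 0.52. At 10 μg/kg the mitochondrial arm had 2 lower (12.5%) and 1 higher (6.25%) and a median of -0.26, and the peroxisomal arm had 1 lower (7.14%) and 3 higher (21.4%) and a median of -0.04, with all genes at 8.13% lower and 13.6% higher. The medians of the peroxisomal arm do not show its spread. Its genes ran at 30 μg/kg from -1.34 (Scp2) to 3.21 (Acot3), and the mitochondrial genes other than Acot2 ran from -1.29 (Acaa2) to 0.32 (Hadhb). Without thioesterases 3 of 15 mitochondrial genes were lower and none higher at 30 μg/kg, and of 11 peroxisomal genes 4 were lower and 3 higher (Abcd2, Ehhadh and Pex11a), with a median of -0.38, to be read against the same 18.9% and 23.2% of all genes.

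The arms were also followed in each mouse as the mean log2 CPM of each arm minus its mean in vehicle. At 30 μg/kg the mitochondrial arm was between -0.29 and 0.12 and the peroxisomal arm between 0.12 and 0.48. Their difference, peroxisomal minus mitochondrial change, lay between -0.02 and 0.01 in the vehicle mice, 0.11 and 0.20 at 1 μg/kg, 0.05 and 0.24 at 3 μg/kg, 0.10 and 0.42 at 10 μg/kg and 0.33 and 0.47 at 30 μg/kg. All mice of the 4 highest doses were above all vehicle mice, and the group means were 0.15, 0.15, 0.30 and 0.39. At 0.03 μg/kg the range was -0.20 to -0.04, below vehicle in all 5 mice, and at 0.1 and 0.3 μg/kg it spanned 0. Without thioesterases the mean at 30 μg/kg was 0.22 ± 0.12 (SD, n = 5) in place of 0.39 ± 0.06, and the ranges at 3 μg/kg (0.04 to 0.18) and 10 μg/kg (-0.04 to 0.27) overlapped that of vehicle (-0.04 to 0.05). No test was made of these means, since the genes in them were chosen with results of these data known. Each gene weighs alike in them whatever its level, and peroxisomal Acot3 and Abcd2, which rose, had the lowest levels in vehicle. The arm medians given above differed the other way at 30 μg/kg, with the peroxisomal lower, and the same way at 10 μg/kg. The summed levels of both arms, given below, were lower at 30 μg/kg than in vehicle.

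**Figure D4:**
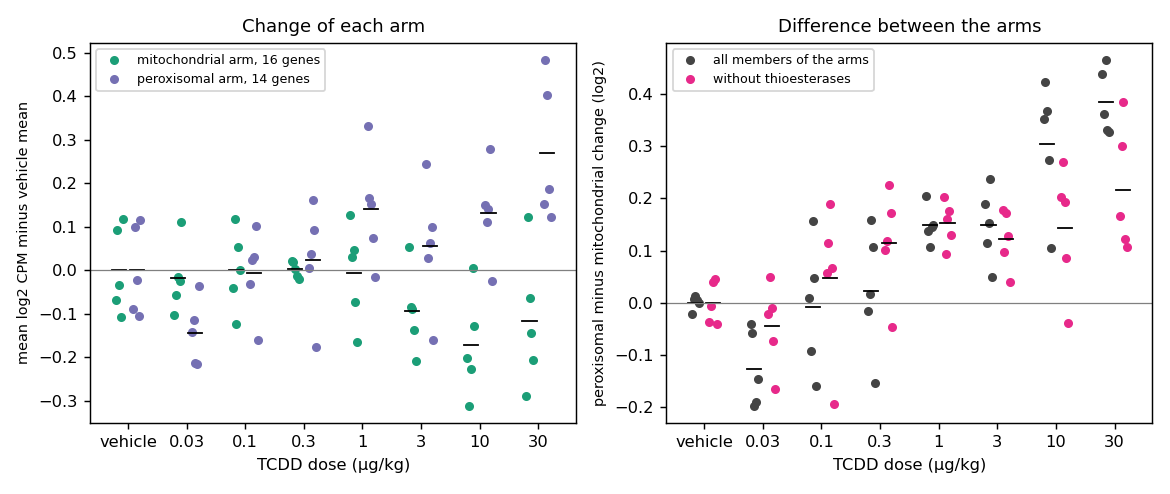
Left, mean log2 CPM of the mitochondrial (16 genes) and peroxisomal arm (14 genes) in each mouse minus the vehicle mean, by TCDD dose (μg/kg, evenly spaced). Right, the peroxisomal minus the mitochondrial change with all members and without thioesterases; points are mice and bars group means, and the dark points of all 5 mice at 1, 3, 10 and 30 μg/kg lie above those of vehicle.

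Levels of different genes were compared per kilobase of annotated exon (CPM per kb). In vehicle the highest levels were those of Scp2 (1036 ± 158, SD), Acaa1b (839 ± 180) and Acaa2 (696 ± 71.8 CPM per kb), of which Acaa1b overlapped in range with Scp2 and with Acaa2. The next was Etfa at 181 ± 6.24 CPM per kb, and the lowest was Acot3 at 1.59 ± 0.71 CPM per kb. Ehhadh came first at 30 μg/kg with 510 ± 360 CPM per kb, an order that its spread between mice does not fix against Scp2 (410 ± 131), Acaa1b (342 ± 103) or Acaa2 (285 ± 42.7). The summed level of the mitochondrial arm was 1580 CPM per kb in vehicle, 1224 at 10 μg/kg and 1093 at 30 μg/kg. That of the peroxisomal arm was 2691, 1726 and 1818 CPM per kb. Scp2, Acaa1b and Acaa2, which hold much of these sums, fell at 30 μg/kg, whereas Ehhadh rose from a mean of 174 to 510 CPM per kb. That mean was the largest in the peroxisomal sum at 30 μg/kg. In replicate 1 of that group, however, Ehhadh (113 CPM per kb) was below Scp2 (643 CPM per kb).

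Of 67 other genes of the pathway and its control, 66 could be tested. They were genes of fatty acid uptake and activation, malonyl-CoA and carnitine entry, other mitochondrial and peroxisomal oxidation, and peroxisome assembly. The list also held other thioesterases, receptor partners and co-regulators, and other targets of PPARα (Pdk4, Fgf21, Vnn1, Angptl4, Fabp1 and Mgll). At 10 μg/kg 18 were lower and 3 higher (27.3% and 4.55%, with all genes at 8.13% and 13.6%), and at 30 μg/kg 29 were lower and 6 higher (43.9% and 9.09%, with all genes at 18.9% and 23.2%). At 30 μg/kg the lower genes included 6 of 9 of uptake and activation, 5 of 9 of short-chain and branched-chain mitochondrial oxidation and 11 of 26 other peroxisomal genes, with none of those 3 groups called higher. Slc27a5, the bile acid-CoA ligase and fatty acid transporter, was at 841, 1112, 1071, 1152 and 1329 CPM in vehicle and at 475, 99.5, 114, 155 and 239 CPM at 30 μg/kg (-2.35 ± 0.24, adjusted p = 1.24e-10, edgeR). Pecr, the peroxisomal enoyl-CoA reductase, fell by the most among the peroxisomal genes (-2.31 ± 0.18, adjusted p = 1.35e-13, edgeR). Both were highest in replicate 1 of the 30 μg/kg group. Cpt1b, the muscle form of the entry enzyme, was called lower but was near its detection limit (0 to 0.278 CPM at 30 μg/kg, 0.0647 to 1.62 CPM in vehicle, with 3 counts worth up to 0.216 CPM).

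The largest rises among the other genes were those of Fgf21, Pdk4 and Acot9. Fgf21, a hepatic hormone of fasting and a known PPARα target, was at 0.0716 to 1.09 CPM in vehicle, 29.3 to 92.8 CPM at 10 μg/kg and 35.2 to 86.8 CPM at 30 μg/kg, with no overlap at either dose (6.61 ± 0.64 at 30 μg/kg, adjusted p = 3.57e-11, edgeR). Pdk4, the kinase that turns pyruvate dehydrogenase off in fasting, was at 45.9, 817, 697, 198 and 39.8 CPM at 30 μg/kg against 20.8 to 29.0 CPM in vehicle (3.85 ± 0.54, adjusted p = 1.36e-07, edgeR). Replicates 2, 3 and 4 were the high mice, the same that led for Ehhadh and Acot2. Acot9, a mitochondrial thioesterase, rose by 2.02 ± 0.23 (adjusted p = 9.43e-10, edgeR).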

How the data were processed

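Total RNA of 40 mouse livers was sequenced as 150-base paired reads, and each library was assigned to its dose group from the sample labels. The authors deposited raw read counts per gene as written by STAR, with an unstranded and 2 strand-specific columns. The submitters' processing notes name FastQC 0.11.7, Trimmomatic 0.39 and STAR 2.7.3a, and both GRCm39 and mm10 as builds, so the build of the counts was not settled. Between 50.0% and 50.3% of strand-specific counts lay on the first strand setting, and the unstranded column was used. Overlapping and antisense genes therefore cannot be separated. Reads that mapped to several places, to no gene or to more than 1 gene were counted in separate rows (reads in genes were 71.3% to 80.8% of each library), and those rows entered neither library sizes nor tests. A normalized table of the whole series was not used.

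Gene symbols were taken from GENCODE M21 by Ensembl identifier (52083 of 55359 matched). Genes were filtered (minimum count 10, minimum total 15) and fitted with edgeR 4.0.16 (R 4.3.3, TMM scaling) on all 40 libraries, with 1 mean per dose group and each dose set against vehicle by the quasi-likelihood test with Benjamini-Hochberg adjustment over all genes tested. The fold threshold of 1.5 follows the study's methods, and this test replaced the study's posterior probability. The fit was tested on simulated data. Log2 CPM used a prior count of 2, and CPM per kb used the union of annotated exons. Replicates are mice numbered in accession order, none shared counts with another beyond sampling noise, and numbers pair no mice across groups. Members, lists and arms were chosen with earlier results of these data known. Values in every mouse were printed for Ppara, Cpt1a, Acaa1a, Acaa1b and Ehhadh, for members called at 3 μg/kg or below, and for the called member with the largest change at 30 μg/kg in each role. Abcd3 and Scp2 were added after their values were seen. Of the other pathway genes, the 3 largest called rises and falls were named. Alternatives were DESeq2 1.42.0, other scalings, filters, covariates, count columns, the 2 groups alone, subsets of libraries, no fold threshold and each library left out.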

Additional observations from a re-analysis of the deposited data

Results flagged for a closer look

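In 108 groups of 5 mice (36 genes in vehicle, at 10 and at 30 μg/kg), 4 had a mouse far from the others by Dixon's test on log2 CPM, where the gap to the nearest mouse is divided by the range and compared with 0.71. Chance flags about 1 group in 20. Scp2 at 30 μg/kg was highest in replicate 1, at 11.1 log2 CPM against 10.2 to 10.3 in the other 4 (ratio 0.865). In vehicle, replicate 1 was lowest for both peroxisomal thiolases, for Acaa1b at 10.0 against 10.7 to 10.9 (ratio 0.777) and for Acaa1a at 7.41 against 7.86 to 8.02 (ratio 0.74). Etfdh was lowest in vehicle replicate 3, at 7.90 against 8.08 to 8.12 (ratio 0.835).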

How the results depend on the processing

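No called value of a single gene at 10 or 30 μg/kg changed sign under an alternative. Of 756 alternative values at 30 μg/kg, 741 kept their call, 5 lost and 10 gained it, and at 10 μg/kg 721, 18 and 17 of 756 did so. Values without a call changed sign 42 times at 30 μg/kg and 25 times at 10 μg/kg. The alternatives for 1 and 3 μg/kg, for the mitochondrial genes called higher and for the steps were chosen after seeing the data. No paired analysis was possible because the replicate numbers only name the mice of 1 group, in accession order.

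With total-count scaling, genes called lower numbered 1 at 1 μg/kg, 3 at 10, 5 at 30 (2 of them peroxisomal) and 1 from 10 to 30 μg/kg, while 2 mitochondrial genes were higher at 30 μg/kg, 13 genes from 10 to 30 and 4 from 3 to 10. The falls of Eci1, Abcd3, Decr2 and Crat at 30 μg/kg were not called under that scaling. Nor were those of Acaa2 (-0.40) and Etfdh (-0.46) at 10 μg/kg. The arm medians at 30 μg/kg were then 0.41 (mitochondrial) and 0.29 (peroxisomal), and the median of all genes was 0.52. Of all 15373 genes, 67 were then lower at 1 μg/kg, 756 at 10 and 1559 at 30 μg/kg, where 6402 were higher. With the usual scaling and no thioesterases, the peroxisomal median was -0.38 and the difference between the arms 0.22. With no fold threshold 5 genes were lower and 2 higher at 3 μg/kg, 15 lower at 10, 16 lower at 30 (6 mitochondrial, with 2 mitochondrial higher), 11 lower and 12 higher from 10 to 30 and 4 lower from 3 to 10 μg/kg. The title numbers pass through the doses from vehicle to 30 μg/kg up to 27, and again from 28. These 2 stretches of numbers are called run 1 and run 2 here, and the labels do not say whether they are batches. Order is the place of a title number in a repeating count of 3. Decr2 was not called at 30 μg/kg in run 1 alone (-0.51). In run 1 alone 0 genes were lower and 0 higher at 1 μg/kg by edgeR (2 and 6 at an unadjusted p under 0.05), 1 was lower at 3, 3 were higher at 10, 0 lower (5 unadjusted) and 4 higher from 10 to 30, and 0 lower (6 unadjusted) and 0 higher (3 unadjusted) from 3 to 10 μg/kg. In run 2 alone 0 were higher at 1 μg/kg (1 unadjusted), 7 lower from 10 to 30, and 0 lower (3 unadjusted) and 1 higher from 3 to 10 μg/kg. Fits of the 2 groups alone gave 2 higher at 1 μg/kg and 2 lower and 4 higher from 3 to 10 μg/kg, DESeq2 gave 2 lower and 4 higher from 3 to 10 μg/kg, run as a covariate gave 4 higher there, and run and order gave 1 higher at 3 μg/kg. The cause of these differences was not tested, and each run alone holds fewer mice than the whole set. Calls over all genes differed too. At 1 μg/kg run 1 alone called 37 lower and 136 higher of 15814 genes. Run 2 alone called 9 and 67 of 16015, and the fit of all mice 98 and 330 of 15373. Run 1 alone called 174 lower at 3 μg/kg and 1195 higher at 10 μg/kg. The 2 groups alone gave 391 higher of 13263 at 1 μg/kg. Counts over all genes are not given here for the steps or for no fold threshold. With each library left out in turn, genes called lower ranged from 1 to 2 and higher from 0 to 1 at 1 μg/kg, lower from 4 to 8 at 10 μg/kg (8 without vehicle replicate 1), lower from 9 to 12 at 30 μg/kg, lower from 4 to 7 from 10 to 30, and lower from 1 to 3 and higher from 2 to 4 from 3 to 10 μg/kg. Depth limits Acot2, Acot3, Acot8, Etfb and Abcd2 most, at under 20 CPM in the mean of vehicle.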
